A study of Mus musculus with 2 samples.

Results

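The 10 genes described here are Nrf1 itself and 9 other regulators of mitochondrial biogenesis in the mouse: Gabpa, Gabpb1, Esrra, Ppargc1a, Ppargc1b, Pprc1, Yy1, Sp1 and Nfe2l1. They were chosen by name, with earlier results of these data known. They are 10 of 21318 protein-coding genes on chromosomes 1 to 19 and X for which a transcription start could be placed. Nuclear respiratory factor 1, NRF1, recognises GC-rich palindromes in the promoters of nuclear genes for the respiratory chain and for the machinery that copies and transcribes mitochondrial DNA. GABP (also called NRF2), built from an ETS-family DNA-binding subunit and an ankyrin-repeat subunit, and the nuclear receptor ERRα act on many of the same promoters. The PGC-1 coactivators bind no DNA themselves and are recruited by these factors. YY1 and SP1 are general promoter-binding factors with sites in many respiratory genes.

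The study mapped NRF1 on chromatin by ChIP-seq in CH12.LX, an immortalized B-cell lymphoma line from a B10.H-2aH-4bp/Wts mouse. There was 1 group, NRF1 immunoprecipitation from CH12.LX cells for which the labels name no treatment, with 2 biological replicates, so the data hold no comparison between conditions, genotypes or times. All values come from this 1 line, and how much NRF1 protein or how many transcripts of the 10 genes the cells held was not measured here. The deposited peak lists give each peak a signal value whose unit and scaling no label or header explains, and read depth is unknown. Control (input) libraries were not analysed here.

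The optimal set, the peaks that passed the authors' reproducibility filter (IDR, irreproducible discovery rate) on the mm10 build, held 17547 peaks with signals from 4.71 to 703 and a median of 38.0. Each replicate also has a relaxed list of peaks and background, of 299936 peaks in replicate 1 and 299924 in replicate 2, with median signals of 3.49 and 3.89. A separate mm9 list was scaled differently, and its signals were never set against those on mm10. A gene was called occupied when an optimal summit lay within 1000 bp of its start, and the start was the 5′ end of its RefSeq bounds.

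NRF1 occupied the starts of 8 of the 10 genes: Nrf1, Gabpa, Esrra, Ppargc1a, Pprc1, Yy1, Sp1 and Nfe2l1. Over all 21318 genes the share was 36.8%, given as description because the 10 genes were chosen with earlier results known. The 2 genes without such a peak were Gabpb1 and Ppargc1b. The peaks were of very unequal size: the highest promoter signals were 627 at Esrra, 514 at Nrf1 and 402 at Gabpa, and the lowest was 23.8 at Sp1. Across the gene bounds plus 5 kb on each side, all 10 genes held at least 1 optimal summit, against 50.9% of genes, and the 10 loci held 22 summits, of which 12 lay within 1000 bp of the start. Of the 22, 18 were also in the stricter conservative set.

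**Figure D1:**
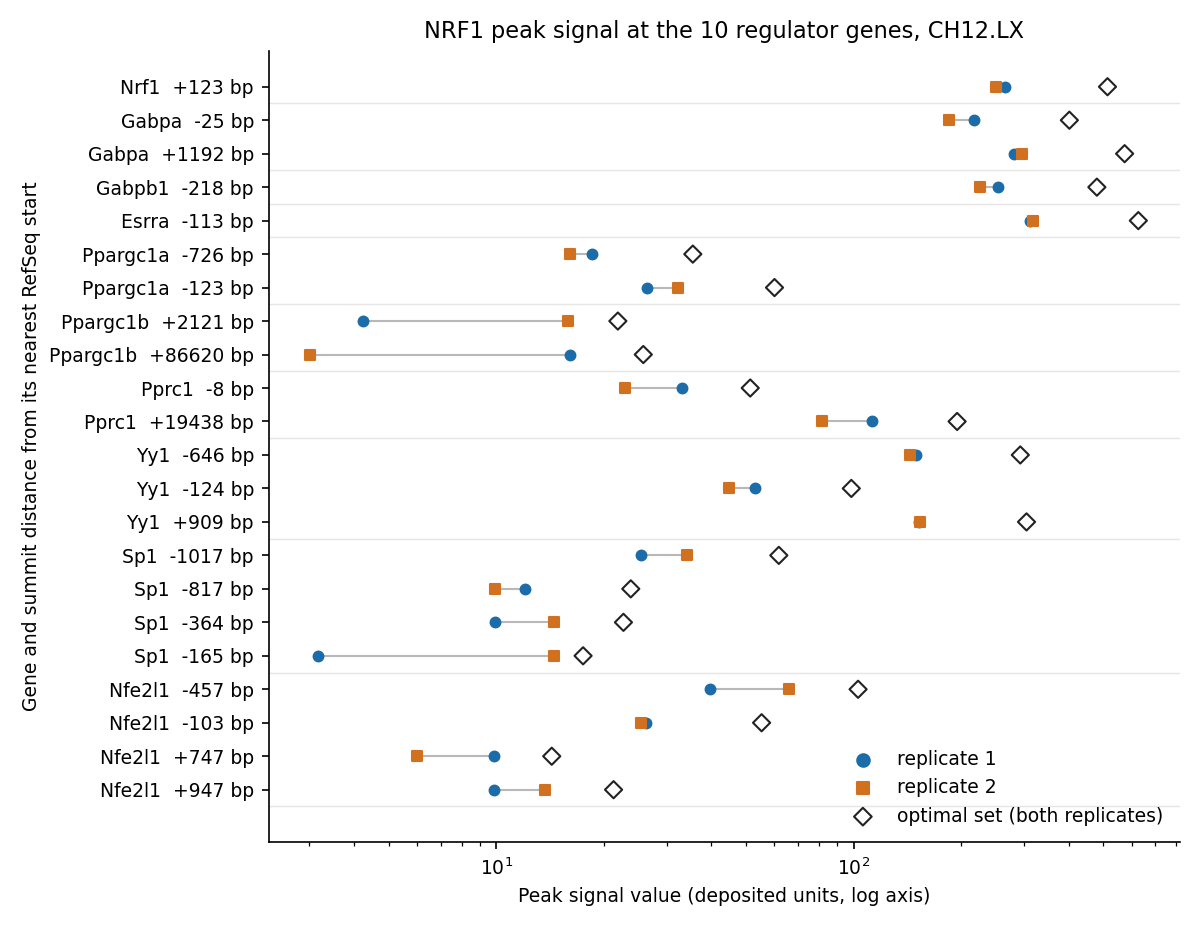
Signal of every optimal peak at the 10 genes (log x axis, deposited units), with the matching relaxed peak of replicate 1 (circle) and of replicate 2 (square) and the optimal signal (diamond); each line names the gene and the summit's distance from the nearest RefSeq start. Peaks at Nrf1, Gabpa, Gabpb1 and Esrra lie at 402 to 627 with close replicates, while the 2 Ppargc1b peaks were each high in 1 replicate only.

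The choice of start mattered for 2 genes. A second annotation, the RefSeq promoter table (curated transcript starts, added after the data were seen), placed starts for 9 of the 10 genes, and 8 of those 9 were occupied, against 40.2% of 17274 genes. Under it Gabpb1 was occupied, because the gene bounds begin far upstream of its curated starts, and Ppargc1a was not, because its 2 peaks lie at a far-upstream start only. Nrf1, Gabpa, Esrra, Pprc1, Yy1, Sp1 and Nfe2l1 were occupied under both.

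Nrf1, the gene for nuclear respiratory factor 1, carried 1 optimal peak in its 105474 bp (chr6:30047985-30153458, plus strand, mm10). The peak, chr6:30047896-30048286, had its summit 126 bp downstream of the first base of the gene and a signal of 514. The signal was 266 in replicate 1 and 251 in replicate 2, a mean of 259 ± 10.2 (SD, n = 2). The replicate summits lay at +114 and +128 bp, so they differed by less than the width of the peak. Among the 7837 occupied genes the Nrf1 promoter signal stood at the 83.5th percentile, and at the 84.7th and 82.6th in replicates 1 and 2 alone.

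Apart from the promoter peak, no peak in the Nrf1 locus was among the 17547 highest of its relaxed list. Replicate 1 listed 28 relaxed peaks within the gene and 5 kb on each side, replicate 2 listed 23 and the pooled list 35. The second strongest had a signal of 8.42 in replicate 1, at +33412 bp, and of 8.49 in replicate 2, at +2570 bp. The promoter peak was thus 31.6 times the second strongest in replicate 1 and 29.6 times in replicate 2, and these second strongest peaks were at different places. In the pooled list the second strongest, with 13.5, lay at +2708 bp. Both replicates listed weak peaks near that place: replicate 1 had 4.93 at +2708 bp, and replicate 2 had 8.49 at +2570 bp and 5.02 at +2770 bp. The promoter table gives Nrf1 a second start at position 30076321, and no optimal summit lay within 1000 bp of it. There the relaxed signal was 4.70 in replicate 1 and 7.46 in the pooled list, and replicate 2 listed none.

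**Figure D2:**
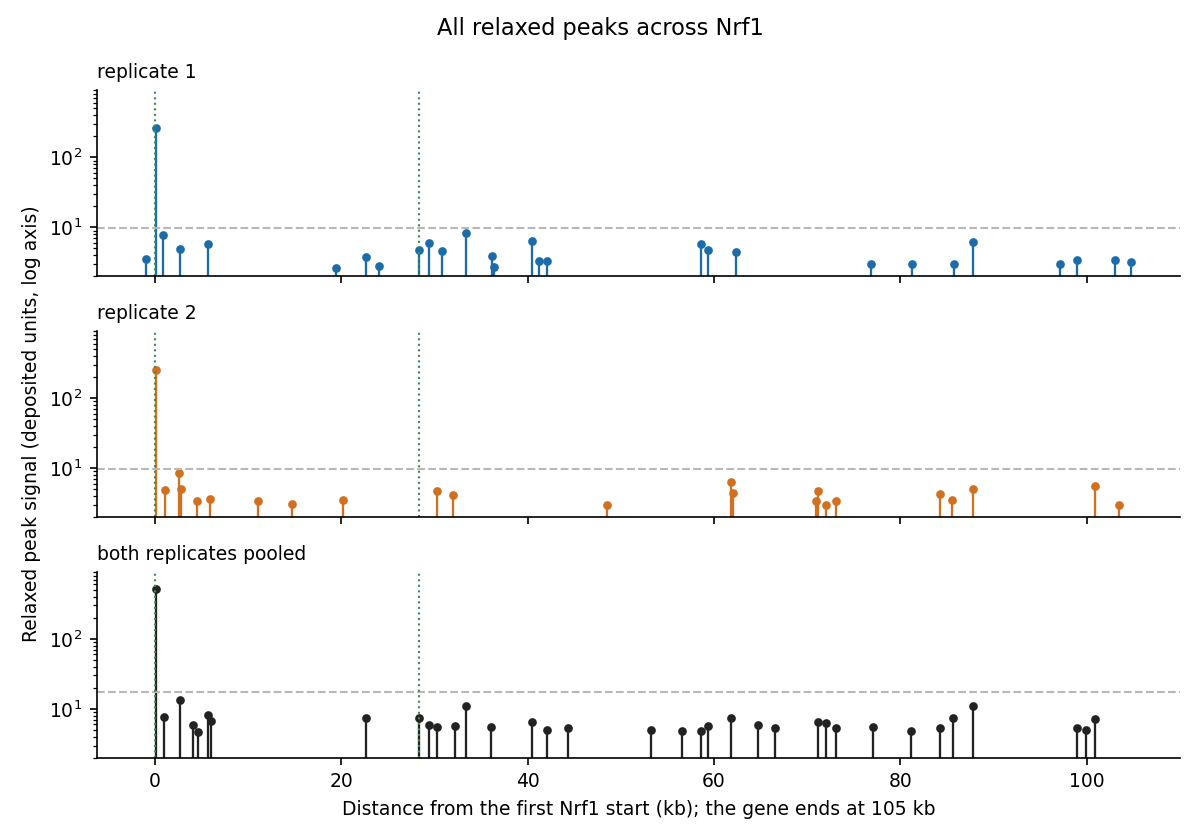
Relaxed peaks across Nrf1 against distance from the first start (kb), for replicate 1, replicate 2 and both pooled (log y axis, deposited signal); dotted lines mark the promoter-table starts, and the dashed line the lowest signal among each list's 17547 highest peaks (9.83, 9.62 and 17.5). In every panel 1 peak, at the first start, stands above the dashed line.

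On mm9, where the genome sequence could be read, the same peak was chr6:29997860-29998313 with a signal of 4703, rank 522 of the mm9 list. Its summit at 29998115 lay 127 bp from the matched RefSeq start and 2 bp past the end of the first exon, in the first intron. Of 17 annotated GENCODE starts of Nrf1, 10 lay within 1000 bp of that summit, and the other 7, from 28333 to 68127 bp downstream of the first, had no mm9 summit within 1000 bp. The NRF1 consensus was searched in its palindromic form gcgcatgcgc and in the form gcgcacgcgc, on both strands. Neither form occurred in the Nrf1 peak, exactly or with 1 mismatch, and the nearest match had 2 mismatches (T6G and G7C, counted from 1 at the 5′ end of the palindrome). The window around the summit instead held 4 copies of the half-site GCGCA, all on the strand of the gene, starting 33 and 17 bp before and 13 and 40 bp after the summit. They are shown because these are the letters nearest to an NRF1 site under the peak at Nrf1 itself. The first 2 lie in the untranslated part of exon 1 (chr6:29998080-29998109) and the other 2 in intron 1 (chr6:29998114-29998164, both mm9, plus strand), with half-sites in capitals:
Nrf1 exon 1 pair: cgGCGCAggcccacggtaGCGCAgccgctc
Nrf1 intron 1 pair: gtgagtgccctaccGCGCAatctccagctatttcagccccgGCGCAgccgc

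This arrangement was uncommon among mm9 promoter peaks (summit within 1000 bp of a start of a protein-coding gene). Of 7369 such peaks, 151 (2.05%) held 4 or more half-sites within 50 bp of the summit, and 18 (0.244%) did so without a consensus at up to 1 mismatch anywhere in the peak. Half-sites in such number were more frequent among the 486 promoter peaks with a signal at or above that of Nrf1. There 82 (16.9%) held 4 or more, and 2 (0.412%) did so without a consensus at up to 1 mismatch. Of the same 486, 466 (95.9%) held the consensus at up to 1 mismatch, and Nrf1 was among the 20 that did not. The half-site count was added after the Nrf1 sequence had been read, so these shares describe where Nrf1 stands and test nothing. Across the 115471 bp of the Nrf1 locus on mm9 no exact consensus was found, and the 3 sites with 1 mismatch, between 85246 and 109658 bp downstream of the first start, lay under no mm9 peak.

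Gabpa, the DNA-binding subunit of GABP, carried 2 peaks in the promoter region that it shares with Atp5j, which encodes a subunit of ATP synthase and is transcribed in the opposite direction. The first, chr16:84834942-84835253 (mm10), had a signal of 402, with 218 in replicate 1 and 185 in replicate 2 (202 ± 23.0, SD, n = 2), and its summit lay 25 bp upstream of the curated Gabpa start and 123 bp from the nearest Atp5j start. The second, chr16:84836148-84836483, had a signal of 574, with 281 and 296 (288 ± 11.0), and lay 1192 bp downstream of the curated Gabpa start and 459 bp from the nearest Atp5j start. The second was the stronger in both replicates, with no overlap between the peaks' replicate values. It lay outside the 1000 bp window, so the promoter value of Gabpa is that of the weaker peak.

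The 2 Gabpa peaks also differed in sequence. On mm9 the intronic peak (summit 84836568, signal 3430) held an exact palindrome centred 6 bp from its summit, the only exact consensus under any mm9 peak of the 10 loci. The promoter peak (summit 84835337, signal 990) had as its nearest match a site with 2 mismatches (G1A and C10T), centred 28 bp from the summit and 4 bp before the start. That peak also held 1 ETS motif (CCGGAAG), the kind of site GABP itself binds, which 21.0% of the mm9 promoter peaks had, and 1 YY1 motif (AAGATGGCG), which 6.45% had. Both sites are shown in capitals, on the plus strand, from chr16:84836538-84836587 (intron) and chr16:84835350-84835379 (promoter) of mm9:
Gabpa intron: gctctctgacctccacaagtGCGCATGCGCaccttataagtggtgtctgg
Gabpa promoter: actgcactgtACGCATGCGTattctggcct

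Gabpb1, the ankyrin-repeat subunit, carried a single strong peak at its curated promoter. The peak, chr2:126675658-126675948 (mm10), had a signal of 480, with 254 in replicate 1 and 226 in replicate 2 (240 ± 19.6, SD, n = 2). Its summit lay 218 bp upstream of the curated start and 8625 bp downstream of the first base of the gene bounds, which is why the gene was not counted as occupied above. On mm9 the summit lay at the same 218 bp from the same start, with a signal of 1488. A site with 1 mismatch (A5C, on the strand opposite to the gene) was centred 8 bp from that summit. It is shown in capitals on the strand of the gene, from chr2:126501514-126501563 of mm9, in an intron of the longer transcripts:
Gabpb1 promoter: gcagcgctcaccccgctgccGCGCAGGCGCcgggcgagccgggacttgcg

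Esrra, which encodes ERRα, had the strongest peak of the 10 genes. The peak, chr19:6921716-6922122 (mm10), had a signal of 627, with 311 in replicate 1 and 319 in replicate 2 (315 ± 5.74, SD, n = 2). All 3 summits fell on the same base, 113 bp upstream of the curated start and 127 bp downstream of the first base of the gene bounds. The promoter signal ranked 222 among the 7837 occupied genes, the 97.2nd percentile. On mm9 the peak (summit 6996408, signal 5332, rank 406) held a site with 1 mismatch (C10T) centred 26 bp from the summit. The site is shown in capitals on the strand of the gene, from chr19:6996410-6996459 of mm9, upstream of the gene as GENCODE bounds it:
Esrra promoter: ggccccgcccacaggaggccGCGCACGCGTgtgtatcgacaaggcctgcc

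Of the 3 PGC-1 family genes, none had a signal near those of Nrf1, GABP or ERRα at its own start. Ppargc1a, which encodes PGC-1α, had 2 peaks at the 5′ end of its longest annotated form, chr5:52115804-52116147 with a signal of 60.1 (26.5 and 32.2 in replicates 1 and 2) and chr5:52116407-52116750 with 35.5 (18.5 and 16.1). The summits lay at -123 and -726 bp from that end (minus, upstream). They lay at -548251 and -548854 bp from the curated start at position 51567725 on mm10, which had no relaxed peak within 1000 bp in either replicate or in the pooled list. No mm9 peak fell in the Ppargc1a locus as GENCODE bounds it on mm9, which begins at the curated start.

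Ppargc1b, which encodes PGC-1β, had 2 optimal peaks, both inside the gene and both uneven between replicates. The peak at +2121 bp (chr18:61398463-61398806, mm10) had a signal of 21.9, with 4.25 in replicate 1 and 15.9 in replicate 2. The peak at +86620 bp (chr18:61313964-61314307) had a signal of 25.8, with 16.1 in replicate 1 and 3.01 in replicate 2. The lower value ranked 91016 of 299936 peaks in replicate 1 for the first and 264903 of 299924 in replicate 2 for the second. Neither peak was in the conservative set. The conservative set instead held a peak of 19.7 at +345 bp that was not in the optimal set, as 2514 conservative summits were not, and its relaxed signals were 8.30 and 12.2. Ppargc1b was therefore occupied by the conservative set, with 9 of 10 genes against 35.5% of all genes, and by the 17547 highest peaks of replicate 2 alone, with 9 of 10 against 36.6%. Replicate 1 alone gave 8 of 10 against 37.9%.

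Pprc1, which encodes PRC, the remaining family member, had a weak peak at its start. The peak chr19:46056346-46056689 (mm10) had a signal of 51.4, with 33.1 and 23.0 in replicates 1 and 2 (28.0 ± 7.16, SD, n = 2), 21 bp upstream of the curated start. The replicate 2 summit lay 133 bp from the optimal one. A second peak in the flank, chr19:46075866-46076065, had a signal of 195 (113 and 81.7), but its summit was 130 bp from the start of the next gene, Nolc1, which encodes a nucleolar protein, and 19438 bp from that of Pprc1. On mm9 the start peak (signal 54.8) had 3 mismatches at best, and the Nolc1 peak (signal 335) a site with 1 mismatch (C10G) in the untranslated part of Nolc1. Another mm9 peak, with a signal of 86.1, lay 448 bp from an upstream GENCODE start of Pprc1 and held a site with 1 mismatch (G9A). It was at -11205 bp from the curated start.

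Yy1 carried 3 peaks, 2 of them of middle size. The outer ones, chr12:108792158-108792410 and chr12:108794059-108794358 (mm10), had signals of 293 (150 and 144 in replicates 1 and 2) and 305 (153 and 154), at -998 and +909 bp from the curated start. The peak between them, chr12:108792649-108792992, had 98.6 (53.1 and 44.8). The replicate values of the inner peak did not overlap with those of the outer ones. Within 1000 bp of the gene-bound start Yy1 had 2 summits, as 6.75% of genes had 2 or more.

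None of the Yy1 peaks on mm9 held an exact NRF1 consensus. The inner one (signal 106) had a site with 1 mismatch (G1C), centred 58 bp from its summit, and both outer ones (557 and 665) had 3 mismatches at best. The downstream peak, in the first intron, held 3 copies of the YY1 motif AAGATGGCG on either strand, the only one of the 7369 promoter peaks (0.0136%) with 3 or more. Since 3 is its own count, that share tests nothing about this peak. It is shown because the strongest peak of Yy1 has no NRF1-like site and several copies of the motif of its own product, from chr12:110032366-110032466 of mm9, plus strand, motif in capitals:
Yy1 intron 1: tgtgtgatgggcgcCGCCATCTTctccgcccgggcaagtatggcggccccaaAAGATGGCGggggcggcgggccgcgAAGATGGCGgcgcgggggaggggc

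Sp1 had the weakest promoter signal of the 8 occupied genes. Its 4 peaks lay upstream of the start at position 102406316 on chromosome 15 (mm10). The strongest, chr15:102405127-102405470 with 61.8 (25.5 and 34.3 in replicates 1 and 2), had its summit at -1017 bp, just outside the 1000 bp window. Inside the window were summits at -817 bp with 23.8 (12.0 and 9.91), at -364 bp with 22.7 (9.92 and 14.5) and at -165 bp with 17.5 (3.16 and 14.5). The last 2 were matched to a single relaxed peak in replicate 2, so the value of 14.5 is 1 measurement. The lowest signals among the 17547 highest relaxed peaks were 9.83 and 9.62, which puts most of these values close to that limit. No mm9 peak fell in the Sp1 locus.

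Nfe2l1, which encodes a basic leucine zipper factor that acts through antioxidant-type elements and shares the abbreviation NRF1 with nuclear respiratory factor 1, had 4 peaks near 2 groups of its starts. At the upstream promoter, chr11:96830253-96830596 (mm10) had a signal of 103, with 39.6 in replicate 1 and 65.9 in replicate 2 (52.7 ± 18.6, SD, n = 2), at -457 bp from the start. At the downstream promoter, chr11:96824058-96824401 had 55.3 (26.2 and 25.5), 103 bp upstream of a curated start. The weakest 2, with 14.3 and 21.3, lay farther inside the gene and shared 1 relaxed peak in replicate 1 (9.84). On mm9 the upstream peak (signal 198) had 3 mismatches at best to the NRF1 consensus and held 1 YY1 motif, shown in capitals on the strand of the gene, from chr11:96691692-96691772 of mm9, upstream of the gene:
Nfe2l1 upstream: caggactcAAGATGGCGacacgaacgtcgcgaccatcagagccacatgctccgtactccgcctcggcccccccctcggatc

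The antibody label gives only the name NRF1. The antioxidant element TGACNNNGC, the type of site bound by NFE2L1 with its partners, occurred in 17.3% of the mm9 promoter peaks and in 23.7% of the 486 at or above the Nrf1 signal. The exact nuclear respiratory factor consensus occurred in 11.9% of the mm9 promoter peaks and in 47.9% of those 486. The motifs differ in length and in how common they are. Over all RefSeq promoter windows the antioxidant element occurred in 12.4% and the exact consensus in 2.29%. Which of the proteins called NRF1 the antibody bound was not tested.

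**Figure D3:**
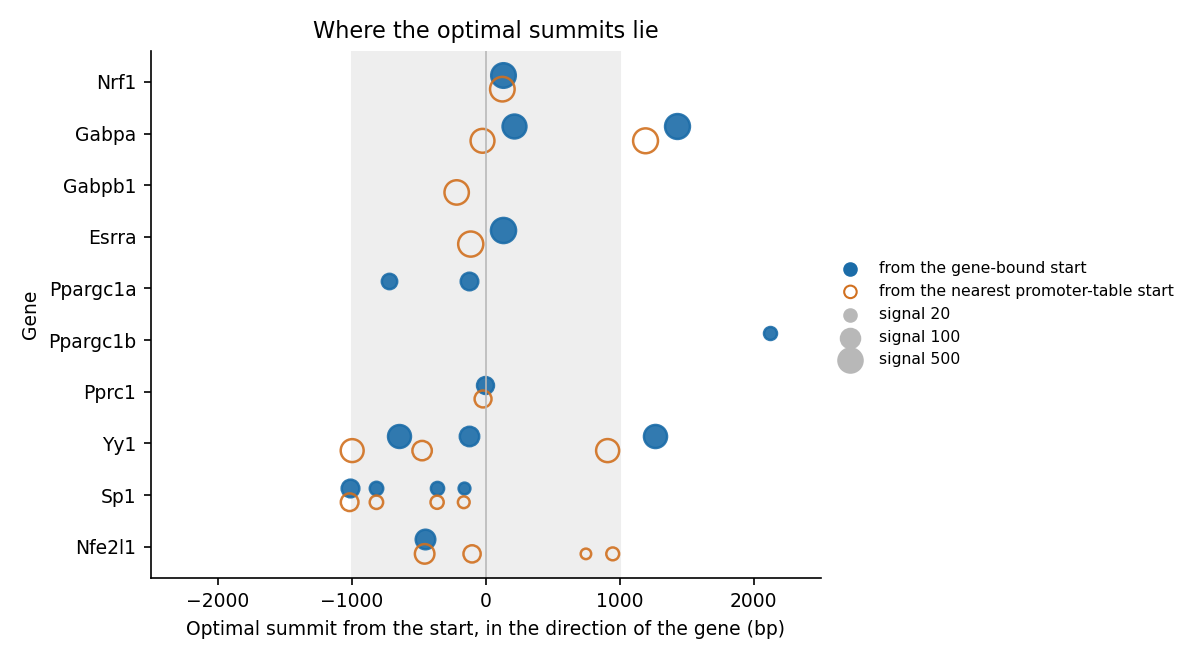
Optimal summits by distance from the start, in the direction of the gene (bp), from the gene-bound start (filled) and from the nearest promoter-table start (open); the area of a point grows with log2 signal and the grey band is the 1000 bp window. Summits beyond the axis, among them those of Gabpb1 and Ppargc1a under 1 of the 2 definitions and the +86620 bp peak of Ppargc1b, are not drawn. Sp1 at -1017 bp and Yy1 at -998 bp from the table start sit at the edge of the band.

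Ordered by the mean of the 2 replicates, the strong peaks were Esrra (311 and 319), the Gabpa intron (281 and 296), Nrf1 (266 and 251), Gabpb1 (254 and 226), the Gabpa promoter (218 and 185), and then the outer peaks of Yy1. Nrf1 and Gabpb1 overlapped in their replicate values, and the other neighbours among the first 5 did not. Below Yy1, the values of Ppargc1a (26.5 and 32.2), Pprc1 (33.1 and 23.0) and the outermost Sp1 peak (25.5 and 34.3) overlapped and could not be ordered. Over all occupied genes the promoter signal had a median of 85.5 and quartiles of 36.0 and 418. Esrra and Nrf1 lay above the upper quartile, Gabpa, Yy1 and Nfe2l1 between it and the median, Ppargc1a and Pprc1 below the median, and Sp1 below the lower quartile. For Sp1 this leaves out its outermost peak (61.8), just outside the 1000 bp window. On mm9 the order of the 7 genes with a peak in the locus was Esrra, Nrf1, Gabpa, Gabpb1, Yy1, Pprc1, Nfe2l1, which differs from the mm10 order only in the exchange of Nrf1 with Gabpa. This order takes the strongest peak of each locus, and the place of Pprc1 rests on the peak at Nolc1: its other peaks (51.4 on mm10, 86.1 and 54.8 on mm9) lay below those of Nfe2l1 (103 and 198). Likewise the place of Gabpa rests on its intron peak. The Gabpa promoter peak (402 on mm10, 990 on mm9) lay below the Gabpb1 peak (480 and 1488).

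**Figure D4:**
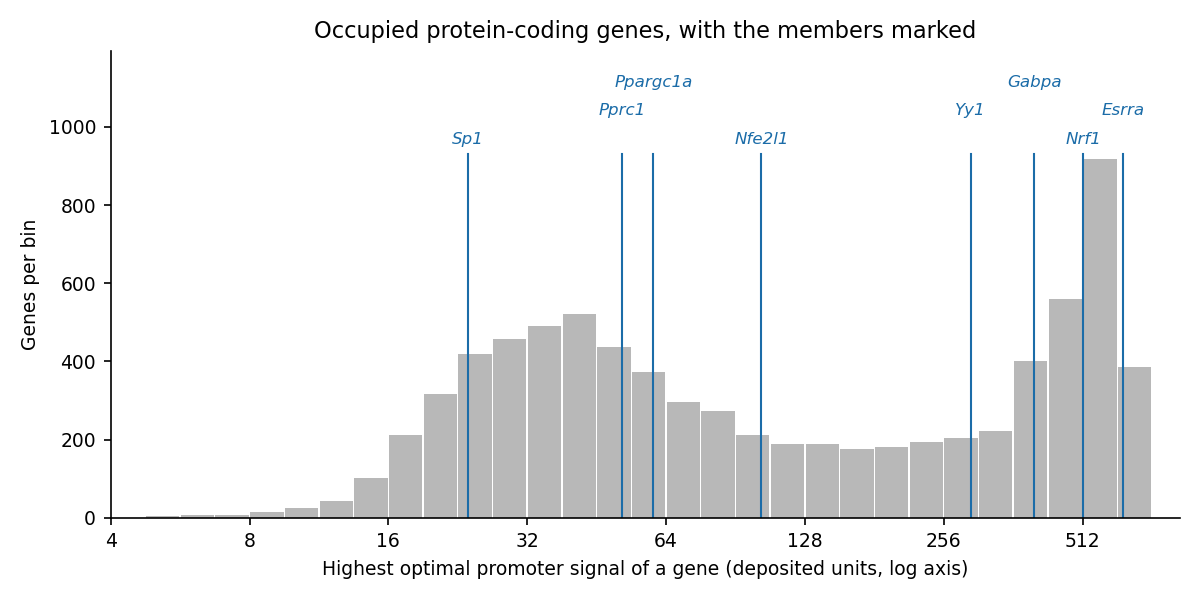
Number of genes by the highest optimal promoter signal (log x axis, deposited units) for the 7837 occupied genes, with the 8 occupied members marked. The distribution has a low and a high mode; Esrra, Nrf1 and Gabpa lie in the high one and Sp1, Pprc1 and Ppargc1a in the low one.

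The mm9 list belongs to the same experiment, so it repeats the mm10 lists in part. Of the 10 genes, 7 had an mm9 summit within 1000 bp of a GENCODE start, against 33.1% of 22208 genes, and they were Nrf1, Gabpa, Gabpb1, Esrra, Pprc1, Yy1 and Nfe2l1. For 12 of the 22 optimal peaks an mm9 summit lay at the same place relative to the same start, with offsets that differed by at most 18 bp. The Ppargc1a peaks lie outside the locus searched on mm9 and could not be matched. No mm9 peak fell in the loci of Ppargc1b and Sp1, so their optimal peaks had no counterpart in that list. The Nfe2l1 peaks with signals of 14.3 and 21.3 had none at the same place either.

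Of the 13 mm9 peaks in the 10 loci, 1 held the exact consensus, 5 a site with 1 mismatch and 2 a site with 2. Of the 10 genes, 7 had an mm9 peak within 1000 bp of a start. None of these had the exact consensus under such a peak, and 11.9% of all mm9 promoter peaks held it. With up to 1 mismatch to either form, added after the data were seen, the genes were 4 of these 7, Gabpb1, Esrra, Pprc1 and Yy1, and 40.8% of all promoter peaks held such a site. A gene counted if any of its promoter peaks held a site, so counts of genes and shares of peaks are not alike. Pprc1 counted through its peak at the upstream GENCODE start (86.1), as the peak at its curated start (54.8) had 3 mismatches at best. Over all promoter peaks the median signal was 2426 with an exact site, 893 with 1 mismatch, 87.6 with 2 and 62.8 with 3 or more. Nrf1, with 4703 and 2 mismatches, lay above the 95th percentile of its class (1971), and Esrra, with 5332 and 1 mismatch, lay above the upper quartile of its class (2587) but below the 95th percentile (6547). Both outer Yy1 peaks (557 and 665) lay above the 95th percentile of the class with 3 or more mismatches (483). Other peaks were low for their class: those of Yy1 (106) and Pprc1 (86.1) with 1 mismatch lay below its lower quartile (121), and the start peaks of Pprc1 (54.8) and Nfe2l1 (60.3) lay below the median of the class with 3 or more.

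**Figure D5:**
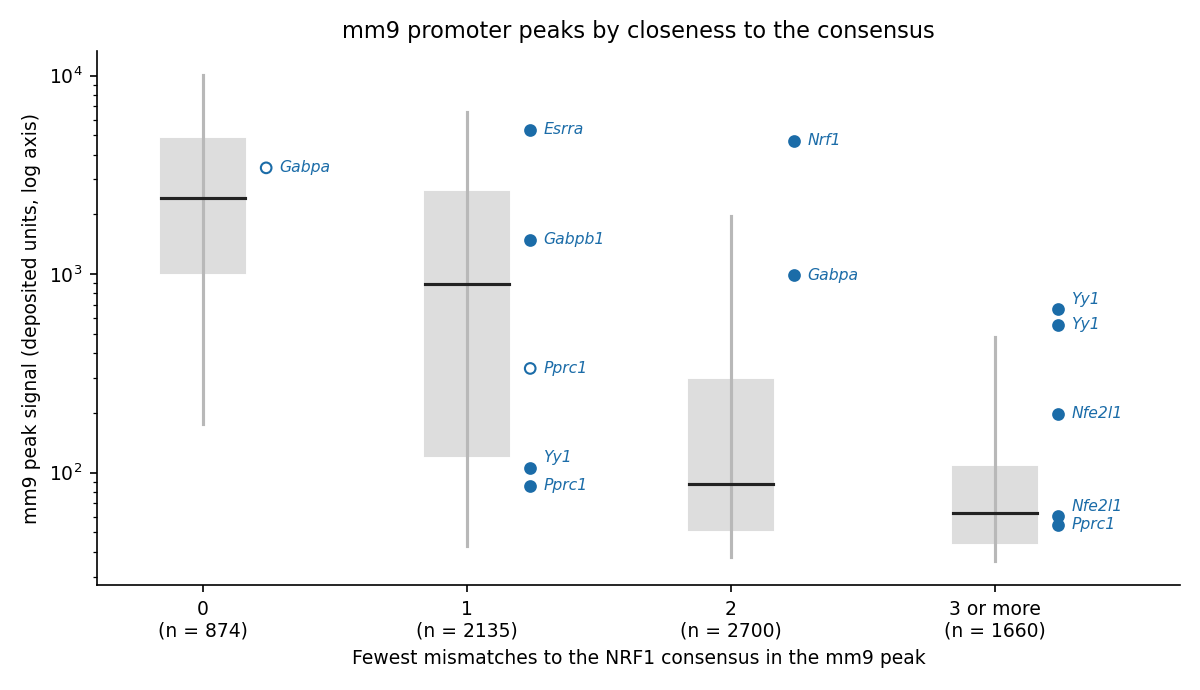
mm9 promoter peaks by the fewest mismatches to the NRF1 consensus (x axis, n peaks in each class) and signal (log y axis, deposited units): box, quartiles; line, median; whisker, 5th to 95th percentile. Points are the 13 peaks in the 10 loci, filled within 1000 bp of a start of the named gene and open outside (the open Pprc1 point is the peak at Nolc1); Nrf1 (4703) stands above the whisker of the class with 2 mismatches.

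In the RefSeq promoter windows on GRCm38 (mm10), 300 bases from 250 before to 50 after each start, the same search gave few sites. The exact consensus occurred in 2.29% of 32619 windows and in none of the 15 windows of the 9 members present. A site with 1 mismatch occurred in 1 window of Gabpb1 and in that of Esrra, against 9.75% of windows with at most 1. The ERR motif TCAAGGTCA and the CREB motif TGACGTCA occurred in no member window (0.426% and 1.80% of all windows), and the E-box CACGTG in none (7.20%). Under the mm9 peaks, however, the Gabpa intron peak held 1 ERR motif (0.339% of promoter peaks) and the inner Yy1 peak 1 CREB motif (3.77%). The SP/KLF motif GGGCGGGG occurred in windows of Nrf1, Esrra, Yy1, Sp1 and Nfe2l1 (17.7% of all windows), and the YY1 motif in that of Gabpa only (1.40%). A match is a run of letters, and the absence of one says only that these letters are not in that window.

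Among other genes of the pathway, taken from 3 lists, 24 of 38 were occupied under the same rule, beside 36.8% of all genes. These lists too were chosen with earlier results of these data known. Of 5 direct effectors of mitochondrial DNA expression and respiration, 4 were occupied: Polrmt, the mitochondrial RNA polymerase, with 642 (324 and 319 in replicates 1 and 2), Cycs, cytochrome c, with 409 (212 and 200), and Tfb2m, a mitochondrial transcription factor, with 276 (158 and 117) were the strongest. Tfam, which packages and helps to transcribe mitochondrial DNA, had no optimal summit within 1000 bp of a start by either definition. Of 22 PGC-1 partners and upstream regulators 16 were occupied, led by the acetyltransferase gene Kat2a with 549 (282 and 271), Atf2 with 245 (128 and 120) and Hcfc1, a coregulator that binds PGC-1 proteins, with 239 (125 and 113). From the promoter-table starts Hcfc1 had 96.9, and Ppara (221) stood above it. The coregulator genes Ncoa1 and Nrip1 were not. Of 11 paralogs of the members 4 were occupied: Gabpb2 had 89.8 (35.4 and 55.4), Sp4 had 61.6 (39.7 and 23.3) and Sp2 had 35.7 (13.5 and 20.5). The last 2 lay above the signal of Sp1 within the 1000 bp window (23.8). The Sp1 peak just outside that window, at -1017 bp, had 61.8 (25.5 and 34.3), and its replicate values overlapped with those of Sp4. From the promoter-table starts Sp2 had 62.2. The ERR paralogs Esrrb and Esrrg were not occupied, while Esrra, as above, was.

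The genes whose promoter signals were most like those of Nrf1, by Euclidean distance over the log2 signals of the 2 replicates, were Mrpl14, Tmem63b and Zfp707. Mrpl14, a mitochondrial ribosomal protein gene, and Tmem63b were represented by 1 shared peak with a signal of 512 (266 and 251), and Zfp707 had 515 (265 and 251). The likeness rests on 2 values a gene.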

How the data were processed

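NRF1 ChIP-seq of CH12.LX cells was analysed from deposited peak lists on mm10 (optimal and conservative IDR sets, relaxed lists per replicate and pooled) and mm9. The deposited notes name the narrowPeak format, in which the authors give each peak a signal value (column 7) and an integer score (column 5, at most 1000). Column 9 of the deposited mm9 list was read as a −log10 value from its range, since no header names it, and was not used. Column 9 on mm10 is a deposited score and was not used. No label or header names the aligner, peak caller or thresholds. Summits were read as column 2 plus column 10. Replicate signals are those of the relaxed peak that overlapped an optimal peak by at least 1 bp with the closest summit; a replicate alone was represented by its 17547 highest peaks.

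Gene bounds and curated starts came from RefSeq (GRCm38.p6) and mm9 starts from GENCODE vM1 on NCBIM37. A promoter-table sequence was placed on mm9 by exact match, and no coordinate was converted. Sequences printed are from NCBIM37. Motifs were searched on both strands of each mm9 peak; half-sites were counted without overlap within 50 bp of the summit. No test was made: there is 1 group with 2 replicates. Shares over all genes or peaks are given as description. The members and lists were chosen with earlier results of these data known. The named genes of each list are the 3 with the highest signal and the first 2 unoccupied by alphabet; the 3 genes nearest to Nrf1 are named. Alternatives were the conservative set, the mm9 list, the 8773 strongest optimal peaks, other windows (500 and 2000 bp) and margins (2 and 10 kb), each replicate alone, and other motif rules. Python 3.11.15, pandas 2.3.3, NumPy 2.4.6 and matplotlib 3.10.9 were used; the scripts were tested on simulated data.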

Additional observations from a re-analysis of the deposited data

How the results depend on the processing

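Of 27 values under alternative settings, 24 were within 1.5 times the reported count or, for the percentile of Nrf1, within the spread of the replicates. That spread is the SD of the replicate percentiles. Each replicate alone is also one of the alternatives, so for these it is no independent limit. The number of occupied members ranged from 7 (mm9 list, or the 8773 strongest optimal peaks) to 9 (conservative set), and with each replicate left out it was 8 and 9. The number of summits in the 10 loci ranged from 21 to 25, the number of occupied genes of the other lists from 19 (the 8773 strongest optimal peaks, added after the data were seen) to 26 of 38, with 21 of 34 under promoter-table starts, and the percentile of Nrf1 from 82.6 to 84.7. The count of members with an exact consensus under a promoter peak, 0, was 1 with up to 1 mismatch to the palindrome (Gabpb1), 4 with up to 1 mismatch to either form, and 1 when any mm9 peak in the locus was taken (Gabpa); the last 2 rules were added after the data were seen, and the wider rules are the cause by construction. No paired analysis was possible because there is only 1 group. Read depth is unknown, so that a locus without a peak is one where none was detectable in these lists.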

Other observations

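Peak width separated the members' peaks. Of all optimal peaks 72.4% had the same width of 344 bp, with a median signal of 26.9, against 381 for peaks of other widths. At the 10 genes 14 of the 22 peaks had that width, with signals from 14.3 to 103, and the 8 others, at Nrf1, Gabpa, Gabpb1, Esrra, the outer sites of Yy1 and Nolc1 next to Pprc1, had signals from 195 to 627.

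Closely spaced summits add to the count at 2 genes. No adjacent summits of the optimal set were closer than 199 bp, and 3.64% of adjacent pairs were at most 210 bp apart. At the 10 genes 3 of 12 adjacent pairs were, 2 upstream of Sp1 and 1 inside Nfe2l1, at 199, 200 and 200 bp, and these are peaks that overlap. The 2 shares are not alike, because the 12 pairs were taken within single loci. The pairs of the whole set are neighbours along entire chromosomes, also where they lie far apart. Whether each pair is 1 or 2 bound sites was not tested.

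Exact consensus sites without a peak were found near 2 members. An exact palindrome at -5234 bp from the 5′ end of Esrra, in an intron of Kcnk4 (chr19:7001537-7001546, mm9), and 1 in an intron of Ppargc1b, 22962 bp from its 5′ end, lay under no mm9 peak, whereas the same letters in the Gabpa intron lay under a peak of 3430.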
